A study of Arabidopsis thaliana with 27 samples.

Results

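AT2G39210 and AT5G14120 are the genes of the nodulin-like branch of the major facilitator superfamily that have named spots on a small Arabidopsis thaliana array of stress-linked genes. The rule that chose them used their annotation and no measured value, but earlier results of these data were known when they were chosen. They are 2 of 416 named genes, with 4 of 884 named spots, and both were among the 180 named genes measured often enough to be tested. Of 18 loci listed for the branch, these 2 were on the array and the others have no named spot.

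Major facilitator proteins are membrane carriers that move small solutes across a membrane along, or coupled to, a concentration gradient. The nodulin-like branch is a plant family named after resemblance to transcripts first found in the nitrogen-fixing nodules of legume roots. For most of its members the transported solute is not established, so no substrate is named here for either gene.

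Plants of the ecotype Columbia, 28 days old and grown in soil, were sprayed with 1 of 6 agents and harvested 2, 5, 10 or 24 h later. Salicylic acid (SA, 5 mM) is a hormone of plant defence, and INA (1 mM) and BTH (0.5 mM) are synthetic compounds that act in its place. BABA (beta-aminobutyric acid, 10 mM) is a non-protein amino acid that primes resistance. Ethephon (ET, 1 mM) releases ethylene inside the plant, and methyl jasmonate (MeJA, 0.1 mM) is a hormone of wounding and defence. Each array set Cy5-labelled RNA of treated plants against Cy3-labelled RNA of untreated plants grown alongside, and the dyes were never exchanged. Treated plants were kept at high humidity after spraying and no mock spray is described for the untreated plants, so effects of dye, spraying and humidity cannot be told apart from those of an agent in a comparison with untreated plants. Labels name the tissue in some fields as leaves and in others as the whole plant except the root. The doses differ, so a difference between agents is one between these treatments and not between equal amounts.

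The series has 27 arrays for 24 conditions, with 1 pooled RNA for each condition. BTH at 5 h and INA at 10 and 24 h have 2 arrays of the same RNA, which were averaged to 1 sample. Each value is the log2 ratio of RNA from treated plants over RNA from untreated plants with the array's median set to 0. Such ratios give no level of a transcript, so the genes' abundances cannot be compared. The logarithm's base is not given in the sources used here and was taken as 2, on which every fold below rests. In such bulk tissue, fewer cells of a type and less RNA per cell cannot be told apart. Of 12 root, flower, seed and leaf markers, 1 had a named spot, so the tissue label could not be checked. That marker, the root beta-glucosidase PYK10, averaged 1.31 under MeJA, -0.13 under ET, -0.65 under BABA, -1.19 under INA, -1.20 under SA and -1.40 under BTH, and its part in the results was not tested.

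Both genes were measured in all 24 conditions, each with 2 spots. AT2G39210 had values for both spots on 25 arrays, which differed by a median of 0.14 on the log2 scale, and AT5G14120 on 27 arrays with a median difference of 0.10. The 2 arrays of one RNA differed more, by 0.32 to 0.89 for AT2G39210 and by 0.38 to 1.00 for AT5G14120. The probes' sequences were not used here, and whether transcripts of related genes contribute to these spots was not tested.

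Both transcripts were above untreated plants in 24 of 24 conditions, also in the values as deposited and after centring on the 54 spots of the tubulin gene TUA5. AT2G39210 ranged between 0.24 and 4.48 (median 2.01), and its rank from the top among the named genes measured in a condition was between 2 and 121 (median 18). AT5G14120 ranged between 0.05 and 3.07 (median 1.64), with ranks between 1 and 194 (median 33). AT2G39210 had its highest mean under BABA and did not pass the test against untreated plants under MeJA. AT5G14120 passed under every agent, MeJA included, and its ratios averaged over the agents fell at 24 h.

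**Figure D1:**
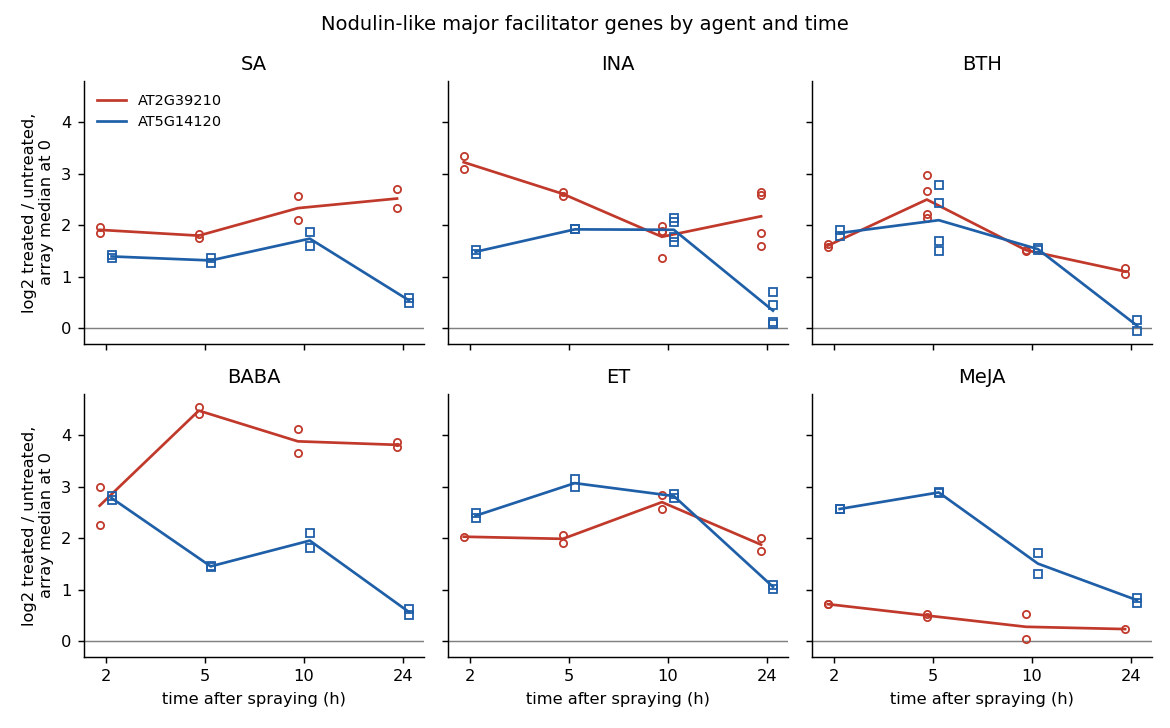
Log2 ratio of treated over untreated RNA (array median at 0, vertical axis) against hours after spraying, 1 panel per agent. Open symbols are single spots (circles for AT2G39210, squares for AT5G14120) and lines join condition means. AT2G39210 peaks at 4.48 under BABA at 5 h and is at most 0.72 under MeJA, and AT5G14120 is lowest at 24 h under each agent.

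AT2G39210 was highest under BABA. Its log2 ratio there was 2.63, 4.48, 3.88 and 3.81 at 2, 5, 10 and 24 h, which is 6.21-, 22.3-, 14.7- and 14.1-fold above untreated plants. The 3 later times lay above every other condition of this gene, whose next value was 3.22 under INA at 2 h. Averaged over the 4 times, BABA gave 3.70 ± 0.25 (SE, n = 4 conditions, adjusted p = 2.6e-11, limma), or 13.0-fold, the second highest mean of the 180 tested genes. Of these genes 33.9% passed as higher under BABA.

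INA, ET, SA and BTH raised AT2G39210 by smaller amounts. Under INA the ratios were 3.22, 2.61, 1.78 and 2.17 at 2, 5, 10 and 24 h, with a mean of 2.45 ± 0.25 (adjusted p = 2.5e-08). Under ET they were 2.03, 1.99, 2.70 and 1.88, with a mean of 2.15 ± 0.25 (adjusted p = 1.5e-07). SA gave 1.91, 1.80, 2.33 and 2.52, with a mean of 2.14 ± 0.25 (adjusted p = 1.1e-07).

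In these 3 treatments the gene stood 4.41- to 5.45-fold above untreated plants on average, and its ratios overlapped between them. BTH gave 1.60, 2.5, 1.52 and 1.1, with a mean of 1.68 ± 0.25 (adjusted p = 3.7e-06), or 3.21-fold. Under BTH the ratio was highest at 5 h and lowest at 24 h. The shares of tested genes that passed as higher were 32.8% under INA, 32.2% under ET, 37.2% under SA and 31.7% under BTH. Among the means of all tested genes AT2G39210 ranked at place 5 under INA, 9 under ET, 11 under SA and 11 under BTH.

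MeJA was the 1 agent under which AT2G39210 did not pass the test. Its ratios were 0.72, 0.50, 0.28 and 0.24 at 2, 5, 10 and 24 h, each below the lowest value under any other agent. The mean of 0.44 ± 0.25 had a 95% interval of -0.08 to 0.96 (adjusted p = 0.165), in a treatment where 22.2% of tested genes passed as higher. Centred on TUA5, the mean was 1.36 and passed (adjusted p = 0.00014). It did not pass under the other 26 of 27 alternatives, among them the deposited values (0.73, adjusted p = 0.095).

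AT5G14120 was higher under all 6 agents, and with the array median as zero its means were highest under ET and MeJA. Under ET the ratios were 2.44, 3.07, 2.82 and 1.06 at 2, 5, 10 and 24 h. Its value at 5 h, 8.40-fold, was the highest of 372 named genes on that array. The mean under ET was 2.35 ± 0.21 (SE, n = 4 conditions, adjusted p = 2.2e-09), or 5.09-fold.

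Under MeJA the gene had 2.57, 2.89, 1.51 and 0.80, with a mean of 1.94 ± 0.21 (adjusted p = 5.6e-08), or 3.84-fold. With the array median as zero, this gene's highest values were under ET and MeJA. The next, 2.78 under BABA at 2 h, was close to the 2.82 under ET at 10 h. BABA gave 2.78, 1.46, 1.96 and 0.57, with a mean of 1.69 ± 0.21 (adjusted p = 2.1e-07). With the array median as zero, the first time under BABA was the highest for AT5G14120, where for AT2G39210 it was the lowest. For AT5G14120 this rests on the zero. Under BABA it had 2.02 at 2 h and 2.94 at 10 h as deposited, and 2.24 and 2.27 centred on TUA5.

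SA, INA and BTH gave the smaller means of AT5G14120 with the array median as zero. This order rests on the scaling, since centred on TUA5 the lowest mean was that of BABA (1.95) and BTH (2.75) was above ET (2.71), and with quantile normalization BABA (1.20) was below INA (1.42) and BTH (1.64). Under INA the ratios were 1.49, 1.92, 1.91 and 0.34, with a mean of 1.42 ± 0.21 (adjusted p = 4.6e-06). Under BTH they were 1.85, 2.10, 1.54 and 0.05, with a mean of 1.38 ± 0.21 (adjusted p = 4.5e-06). SA itself gave 1.40, 1.32, 1.74 and 0.54, with a mean of 1.25 ± 0.21 (adjusted p = 1.5e-05).

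These means correspond to 2.67-, 2.61- and 2.38-fold, and at 24 h the 3 treatments lay within 0.6 of untreated plants with the array median as zero. As deposited, the 24 h values were 0.19 under INA, 0.20 under BTH and 1.57 under SA. Centred on TUA5 they were 1.69, 2.095 and 1.79, so a return to the untreated level is not shown. The gene's rank among the means of tested genes was 8 under ET, 7 under MeJA, 20 under BABA, 15 under INA, 15 under BTH and 35 under SA. The background shares for these calls are those given for AT2G39210, since all genes were tested in one fit. The calls of both genes against untreated plants kept their direction and side of the threshold under every alternative run (27 for AT2G39210 and 26 for AT5G14120), apart from AT2G39210 under MeJA when centred on TUA5.

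**Figure D2:**
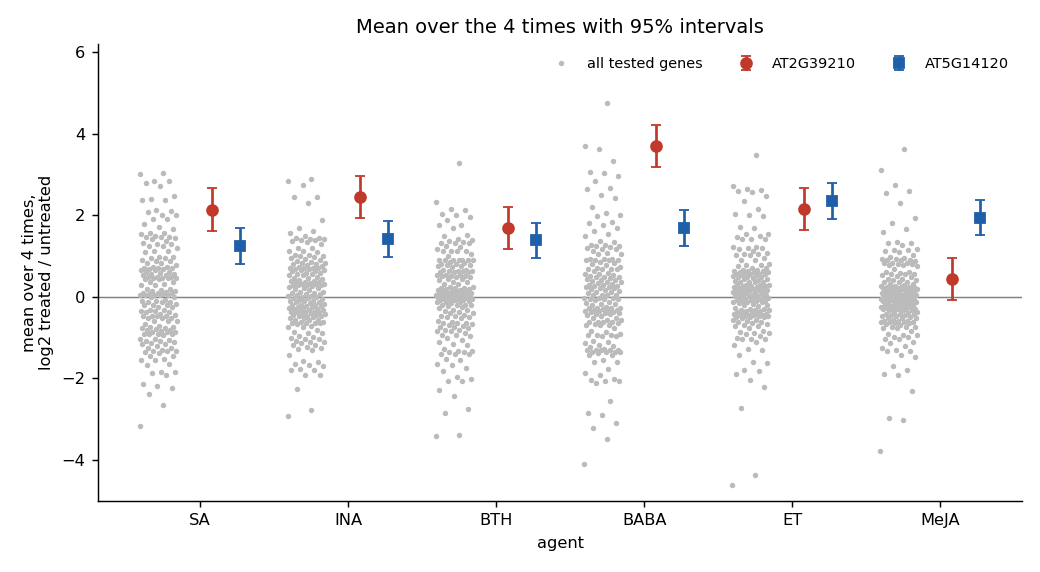
Mean log2 ratio over the 4 times (vertical axis) for each agent, with 95% intervals for AT2G39210 (circles) and AT5G14120 (squares) and the 180 tested genes as grey points. AT2G39210 is at 3.70 under BABA and 0.44 under MeJA, and AT5G14120 lies between 1.25 and 2.35.

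How far the condition means stood above untreated plants depended on the zero chosen, though their sign did not. For a single array the sign could change. AT5G14120 on INA 24 h replicate 1 was at -0.07 as deposited and 0.58 with the array median as zero. The deposited array medians lay between -0.76 and 1.49, and TUA5 lay between -2.04 and 0.54 relative to the array median. Centred on TUA5, the agents' means were 1.36 to 3.97 for AT2G39210 and 1.95 to 2.87 for AT5G14120. The medians of all tested genes under the array-median zero were between -0.04 and 0.11.

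Over all tested genes, the calls higher and lower were 61 and 59 under BABA, 67 and 64 under SA, 58 and 39 under ET, 59 and 49 under INA, 40 and 43 under MeJA and 57 and 51 under BTH. Centred on TUA5 they were 71 and 43 under BABA, 125 and 9 under SA, 78 and 17 under ET, 118 and 14 under INA, 124 and 8 under MeJA and 145 and 9 under BTH. As deposited they were 69 and 36 under BABA, 97 and 14 under SA, 90 and 11 under ET, 86 and 15 under INA, 44 and 16 under MeJA and 60 and 27 under BTH.

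**Figure D3:**
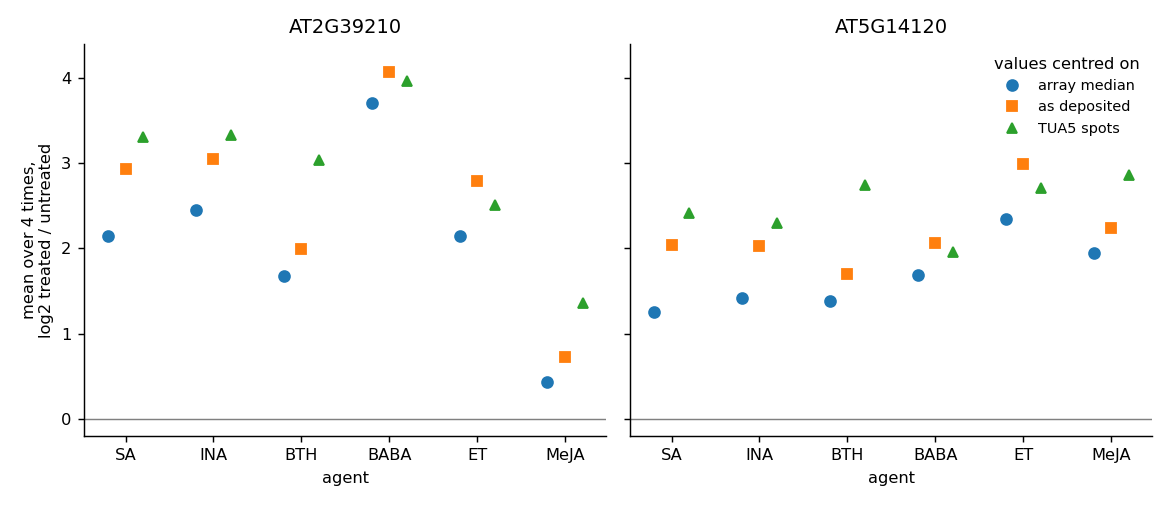
Mean log2 ratio over the 4 times (vertical axis) of each gene under each agent with 3 choices of zero: the array median (circles), the values as deposited (squares) and the TUA5 spots (triangles). All means are above 0, and AT2G39210 under MeJA moves between 0.44 and 1.36.

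For AT2G39210 the agents fell in the order BABA, INA, ET, SA, BTH and MeJA, and 9 of the 15 pairs passed the test. Whether the arrays shared one untreated RNA is not stated, so the pairs may share it. Each of the other 5 agents exceeded MeJA. SA minus MeJA was 1.70 ± 0.36 (adjusted p = 0.00029) and INA minus MeJA was 2.01 ± 0.36 (adjusted p = 6.8e-05). BTH minus MeJA was 1.25 ± 0.36 (adjusted p = 0.0106).

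BABA minus MeJA was the widest of the 15 differences, at 3.27 ± 0.36 (adjusted p = 8.8e-08). ET minus MeJA was 1.71 ± 0.36 (adjusted p = 0.00085). The shares of all tested genes that passed in these pairs were 58.3% for SA, 50% for INA, 34.4% for BTH, 58.3% for BABA and 21.1% for ET. The differences of SA, INA, BABA and ET from MeJA passed under all 27 alternatives. BTH minus MeJA missed the threshold in the deposited values (adjusted p = 0.069) and without the 5 h arrays (0.99, adjusted p = 0.080).

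BABA exceeded the other 4 agents for AT2G39210. SA minus BABA was -1.56 ± 0.36 (adjusted p = 0.0017), INA minus BABA was -1.26 ± 0.36 (adjusted p = 0.0197), and BTH minus BABA was -2.02 ± 0.36 (adjusted p = 0.00010). BABA minus ET was 1.55 ± 0.36 (adjusted p = 0.0015). In these 4 pairs 38.9%, 17.8%, 46.7% and 46.1% of tested genes passed, in the same order.

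The BABA arrays had the broadest values, with standard deviations over all spots of 1.28 to 1.96 against 0.89 to 1.45 on the other arrays. With arrays brought to a common spread the BABA mean of AT2G39210 was 2.96, and with quantile normalization it was 2.68. BABA minus ET was then 0.56 (adjusted p = 0.26) and 0.32 (adjusted p = 0.59) and no longer passed. Quantile normalization also ended the calls of SA minus BABA (-0.63, adjusted p = 0.26) and BTH minus BABA (-0.66, adjusted p = 0.20). SA minus BABA missed in the deposited values too (-1.14, adjusted p = 0.085) and centred on TUA5 (-0.66, adjusted p = 0.16). INA minus BABA was lost under 11 of 27 alternatives, including that without the BABA 10 h array (-1.18, adjusted p = 0.055).

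Among the 4 agents in the middle of the order, no neighbours differed past the threshold. SA minus INA was -0.31 (95% interval -1.04 to 0.43), SA minus BTH was 0.46 (-0.28 to 1.19) and SA minus ET was -0.01 (-0.74 to 0.73). INA minus BTH was 0.77 (0.03 to 1.5, adjusted p = 0.10), INA minus ET was 0.30 (-0.44 to 1.03) and BTH minus ET was -0.47 (-1.20 to 0.27). The far ends of these intervals lie between 0.74 and 1.5 in size. The shares of tested genes that passed were 6.67% for SA minus INA, 40.6% for SA minus BTH, 56.7% for SA minus ET, 33.9% for INA minus BTH, 34.4% for INA minus ET and 23.9% for BTH minus ET.

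For AT5G14120 the order was ET, MeJA, BABA, INA, BTH and SA, and no neighbours in it differed past the threshold. Of the 15 pairs 4 passed, 3 of them with ET and 1 with MeJA. SA minus ET was -1.1 ± 0.30 (adjusted p = 0.0039), INA minus ET was -0.93 ± 0.30 (adjusted p = 0.0163) and BTH minus ET was -0.96 ± 0.30 (adjusted p = 0.0223). SA minus MeJA was -0.69 ± 0.30 (adjusted p = 0.0493). In these 4 pairs 56.7%, 34.4%, 23.9% and 58.3% of tested genes passed, in the same order.

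The genes thus placed MeJA at opposite sides of SA, above it for AT5G14120 and below it for AT2G39210. The calls of AT5G14120 between agents were less firm than those of AT2G39210 against MeJA. With the replicate number of the repeat arrays as a block, 2 of the 15 pairs passed, and the calls lost were INA minus ET (-0.78, adjusted p = 0.053) and SA minus MeJA (-0.69, adjusted p = 0.061). INA minus ET was lost under 6 of 26 alternatives, among them the deposited values (adjusted p = 0.16), centring on TUA5 (-0.41, adjusted p = 0.33) and the fits without 5 h (adjusted p = 0.058) or 10 h (adjusted p = 0.053). SA minus MeJA was lost under 17 of 26 alternatives, among them those without INA 10 h replicate 2, INA 24 h replicate 1 or 2, BTH 5 h replicate 2 or the BABA 10 h array (adjusted p between 0.0503 and 0.0610). BTH minus ET missed the threshold with its direction kept under 5 of 26 alternatives, and it turned to 0.03 when centred on TUA5. Among the 5 were quantile normalization (adjusted p = 0.055) and the fits without 10 h (adjusted p = 0.11) or 24 h (adjusted p = 0.080). Another was that without BTH 5 h replicate 2 (-0.84, adjusted p = 0.0504). SA minus ET was lost under 3 alternatives, with -0.30 (adjusted p = 0.42) centred on TUA5. Centred on TUA5, none of the 4 called pairs passed, SA minus MeJA being -0.45 (adjusted p = 0.21) and BTH minus ET having an adjusted p of 0.93.

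The other pairs of AT5G14120 did not pass with the array median as zero. BABA minus ET came nearest, at -0.66 (95% interval -1.27 to -0.04, adjusted p = 0.073), followed by BTH minus MeJA at -0.56 (-1.17 to 0.06) and INA minus MeJA at -0.53 (-1.14 to 0.09). SA minus BABA was -0.44 (-1.06 to 0.17) and ET minus MeJA was 0.41 (-0.21 to 1.02). BTH minus BABA was -0.31 (-0.92 to 0.31), INA minus BABA was -0.28 (-0.89 to 0.34) and BABA minus MeJA was -0.25 (-0.87 to 0.36). Some of these passed under other settings. BABA minus ET passed under 4, at -0.76 (adjusted p = 0.048) centred on TUA5, -1.32 (adjusted p = 0.0045) with quantile normalization, -1.23 (adjusted p = 0.029) with arrays brought to a common spread and -0.99 (adjusted p = 0.019) without the 2 h arrays. BABA minus MeJA passed under the first 3 of these, at -0.91, -0.95 and -1.14. BTH minus BABA turned to 0.79 and passed centred on TUA5 (adjusted p = 0.023).

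With the array median as zero, the agents linked to salicylic acid lay closest together for this gene. SA minus INA was -0.17 (-0.78 to 0.45), SA minus BTH was -0.14 (-0.75 to 0.48) and INA minus BTH was 0.03 (-0.58 to 0.65). This closeness rests on the zero. In the deposited values SA minus BABA was -0.02 and SA minus BTH was 0.35. Centred on TUA5, BTH minus ET was 0.03 and INA minus BTH was -0.45. INA and BTH are synthetic compounds used in place of SA, and for neither gene did a pair among the 3 pass the test.

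Over time, AT5G14120 fell at 24 h. Its ratios averaged over the 6 agents were 2.09 ± 0.59, 2.13 ± 0.72, 1.91 ± 0.48 and 0.56 ± 0.35 at 2, 5, 10 and 24 h (SD, n = 6 agents). With the array median as zero, the 24 h ratios, between 0.05 and 1.06, did not overlap with those of any earlier time, whose lowest value was 1.32. In the deposited values they overlapped, with 1.57 under SA at 24 h and 1.48 under MeJA at 10 h. Centred on TUA5 they overlapped too, with 2.095 under BTH at 24 h and 1.74 under BABA at 5 h. The difference of 24 minus 2 h was -1.53 ± 0.24 (SE, adjusted p = 2.6e-05), which is 2.88-fold lower, and it was negative under 6 of 6 agents. In this comparison 42.2% of tested genes passed in either direction, and AT5G14120 ranked at place 170 of 180 from the top.

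The mean over agents was lower at 24 h than at any earlier time, while single agents differed in their course, with 2.89 at 5 h and 1.51 at 10 h under MeJA and 2.78 at 2 h and 1.46 at 5 h under BABA. As deposited, MeJA had 3.64 and 1.48 at these times, and BABA had 2.02 and 1.91. The difference of 5 minus 2 h was 0.04 (95% interval -0.46 to 0.54) and that of 10 minus 2 h was -0.17 (-0.68 to 0.33), in comparisons where 20% and 44.4% of tested genes passed. The F test over the 4 times passed (adjusted p = 1.8e-05), as it did for 57.8% of tested genes. The fall to 24 h passed under all 22 alternatives, with values between -1.76 and -0.69.

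The smallest of these values, -0.69 (adjusted p = 0.0167), came from centring on TUA5. TUA5 itself lay at 0.04 under ET, -0.51 under INA, -1.09 under SA, 0.54 under BABA, -1.22 under BTH and -0.18 under MeJA at 2 h relative to the array median. At 24 h it lay at -0.66 under ET, -1.19 and -1.51 under INA, -1.25 under SA, -0.99 under BABA, -2.04 under BTH and -1.17 under MeJA. TUA5 was thus lower at 24 than at 2 h under every agent too.

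AT2G39210 showed no such fall. Its means over the 6 agents were 2.02 ± 0.86, 2.31 ± 1.30, 2.08 ± 1.21 and 1.95 ± 1.23 at 2, 5, 10 and 24 h (SD, n = 6 agents). The differences from 2 h were 0.29 (95% interval -0.31 to 0.89) at 5 h, 0.06 (-0.54 to 0.66) at 10 h and -0.07 (-0.67 to 0.53) at 24 h, and the F test did not pass (adjusted p = 0.66). Centred on TUA5, 24 minus 2 h was 0.77 and passed (adjusted p = 0.036), so the direction for this gene rests on the zero chosen.

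**Figure D4:**
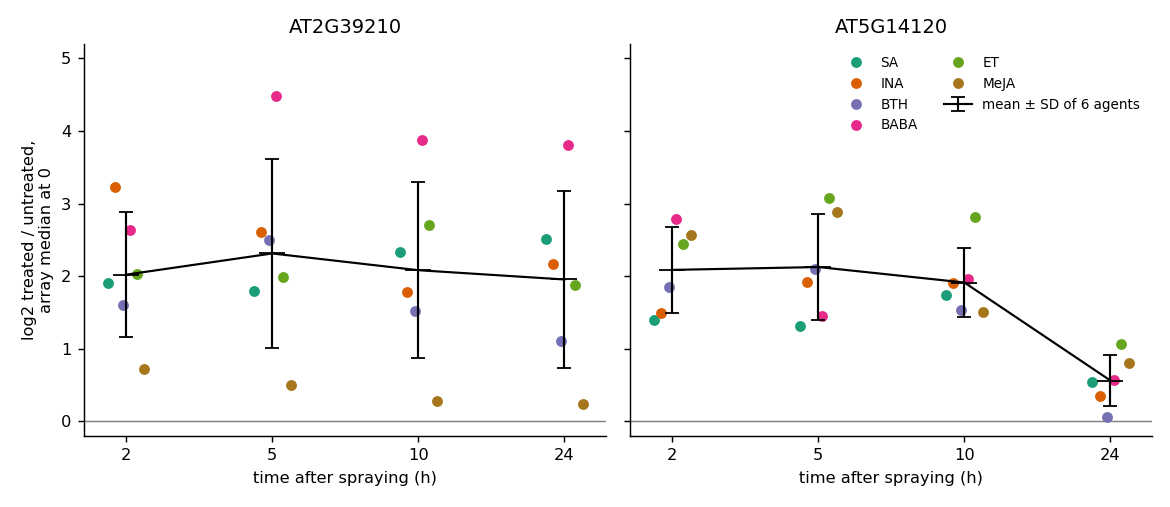
Log2 ratio of treated over untreated RNA (vertical axis) against hours after spraying for both genes, 1 point per agent, with the mean ± SD of the 6 agents. AT5G14120 drops to 0.56 at 24 h, while AT2G39210 stays near 2 with a wide spread between agents.

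Within single agents, later times (mean of 10 and 24 h) minus earlier ones (mean of 2 and 5 h) passed the test for neither gene under any of the 6 agents. The shares of tested genes that passed were 1.11% under SA, 0.556% under BABA, 0.556% under MeJA, and 0% under INA, BTH and ET alike, so this comparison called few genes at all. At an unadjusted p under 0.05 there were 0 agents for AT2G39210 and 1 for AT5G14120. That agent was MeJA, with 1.15 at the later and 2.73 at the earlier times, a difference of -1.58 (95% interval -3.04 to -0.11, adjusted p = 0.44). The next for AT5G14120 was BTH, with 0.80 at the later and 1.97 at the earlier times.

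For AT2G39210 the 2 largest differences were those of INA, with 1.98 at the later and 2.92 at the earlier times (-0.94, -1.98 to 0.09), and BTH, with 1.31 and 2.05 in the same order (-0.74, -1.78 to 0.29). With 2 conditions on each side these intervals span more than 2 log2 units.

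The difference of the genes on the same array does not depend on how arrays are centred. It does depend on the arrays' spread, and it was not tested with arrays brought to a common spread. AT2G39210 minus AT5G14120 was -1.85, -2.39, -1.23 and -0.56 under MeJA at 2, 5, 10 and 24 h, below 0 at all 4 times. Under SA it was 0.52, 0.48, 0.59 and 1.98, above 0 at all 4 times. Under BABA it was -0.15, 3.02, 1.93 and 3.24.

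AT2G39210 thus stood further above untreated plants than AT5G14120 under SA, and less far under MeJA, at every time. Under INA the difference was 1.74, 0.69, -0.14 and 1.83 at the 4 times. Under BTH it was -0.25, 0.40, -0.02 and 1.05, and under ET it was -0.41, -1.08, -0.12 and 0.82.

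The means over the 4 times were 2.01 ± 1.55 under BABA, 1.03 ± 0.93 under INA, 0.89 ± 0.72 under SA, 0.30 ± 0.57 under BTH, -0.20 ± 0.79 under ET and -1.51 ± 0.79 under MeJA (SD, n = 4 conditions). The values of SA, INA, BTH and BABA did not overlap with those of MeJA. Each of these 4 pairs gave p = 0.0286 in a two-sided exact permutation test, the smallest that 4 against 4 values allow. The test took an agent's 4 times as exchangeable and did not keep times matched between agents. After adjustment over the 15 pairs they were at 0.107, so 0 of 15 pairs passed. ET minus MeJA was 1.31 (exact p = 0.0571, adjusted p = 0.171).

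The signed difference of the genes was also compared between 24 and 2 h. AT2G39210 minus AT5G14120 was higher at 24 than at 2 h under 6 of 6 agents, by 3.39 under BABA, 1.46 under SA, 1.30 under BTH, 1.29 under MeJA, 1.23 under ET and 0.09 under INA. The mean gain was 1.46 ± 1.07 (SD, n = 6 agents, p = 0.0313 in a two-sided exact test of sign changes, the smallest that 6 pairs allow). This comparison was chosen after seeing the data. Under INA the 2 arrays at 24 h had 2.04 and 1.63 against 1.74 at 2 h, so the sign of its gain rests on replicate 1. Without INA 24 h replicate 1 the gain under INA was below 0, the mean was 1.42 and the exact p = 0.0625. Under MeJA the gain brought the genes closer together, since the difference there was below 0 at both times.

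**Figure D5:**
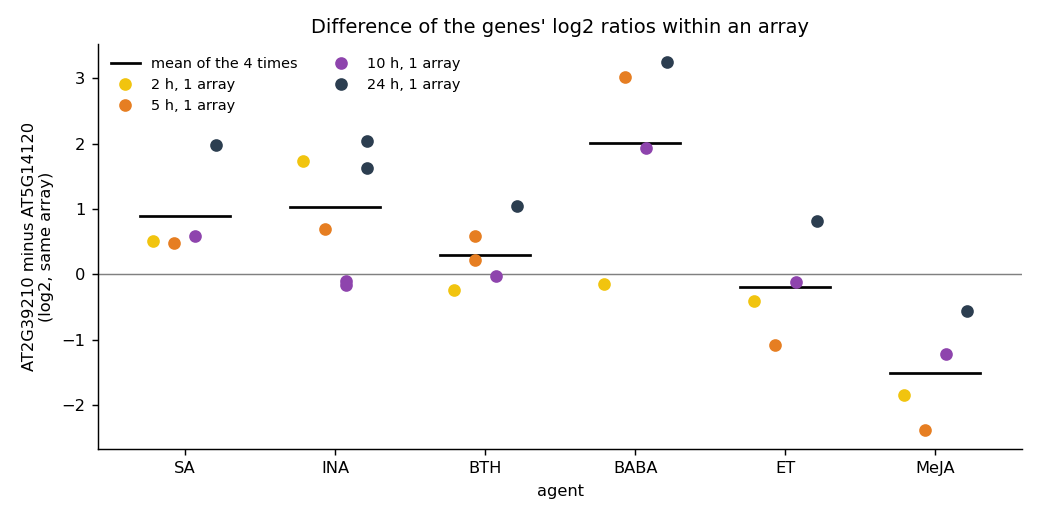
AT2G39210 minus AT5G14120 on the same array (log2, vertical axis) for each agent, 1 point per array coloured by hours after spraying, with a line at the mean of the 4 times. All MeJA points are below 0 and all SA points above it, and under SA the 24 h point at 1.98 stands apart from the others.

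Over the 24 conditions the genes' own ratios had a Pearson correlation of -0.03 with each other, a description of conditions that share agents, times and centring. The correlation was 0.28 in the deposited values and 0.10 after each agent's mean was taken out. With the centring on TUA5 it was -0.42. Among 227 named genes with at least 20 shared conditions, AT5G14120 was at place 121 in likeness to AT2G39210.

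The genes most like AT2G39210 were AT4G38550 (r = 0.86, 24 conditions), the desiccation-response gene RD2 (0.80, 24), AT4G26910, which encodes a subunit of the 2-oxoglutarate dehydrogenase complex (0.78, 23), AT3G19010 (0.76, 24) and the monooxygenase gene CTF2B (0.76, 21). The least like were AT3G21670 (-0.79, 23), a nitrate and peptide transporter family gene, and ZW9 (-0.79, 24). Once each agent's mean was taken out, the 5 high correlations were 0.35, 0.55, 0.20, 0.50 and 0.13 in the order given. Each was lower than over all conditions, in which the agents' means differ. In the deposited values the least like genes had -0.66 for AT3G21670 and -0.31 for ZW9.

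The genes most like AT5G14120 were AT2G30600 (r = 0.70, 23 conditions), AT5G61590 (0.68, 24), the ethylene response factor family gene also called DEWAX, TUA5 (0.67, 24), AT1G78830 (0.62, 24) and the beta-glucosidase gene BGLU16 (0.61, 22). The least like were AT3G51000 (-0.69, 24) and ECS1 (-0.63, 24). With each agent's mean taken out the 5 high correlations were 0.65, 0.85, 0.72, 0.88 and 0.84 in the order given. Apart from that of AT2G30600, these were higher than over all conditions, so the likeness was seen within agents, over time. Centred on TUA5, the 4 genes other than TUA5 had 0.42, 0.51, 0.34 and 0.35, and in the deposited values AT3G51000 had -0.03 and ECS1 -0.32. All of these correlations are descriptions, since genes on the same arrays share labelling and centring.

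Other transporter genes were searched for by transport words in gene symbols and synonyms. A transporter gene without such a word is missed, so the search gives no count of those on the array. It found GTR1, a glucosinolate transporter, and OCT5, an organic cation transporter measured in 16 conditions and not tested. GTR1 was lower under 5 agents, with -1.35 under BTH, -1.30 under BABA, -1.26 under SA, -1.03 under INA and -1.02 under ET (largest adjusted p = 8.6e-05, SE 0.19 each), and it had -0.22 under MeJA (adjusted p = 0.37). Centred on TUA5, GTR1 stood at -0.10 under SA, -0.14 under INA and 0.01 under BTH. GTR1 under MeJA turned to 0.08 in the deposited values and 0.71 centred on TUA5. OCT5 averaged 2.19 under SA over the times measured, 0.79 under BTH, 0.78 under INA, 0.54 under MeJA and -0.22 under ET, and it had no value under BABA.

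AT3G21670, the gene least like AT2G39210, averaged -4.09 under BABA and 1.28 under MeJA (adjusted p = 3.7e-09 and 0.0200), where AT2G39210 had 3.70 and 0.44. It averaged -2.93 under INA, -2.19 under SA, -0.45 under ET and 0.05 under BTH. Its sign under BABA, INA, SA and MeJA was the same in the deposited values and centred on TUA5.

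Other genes of this kind were AT2G26690, of the nitrate and peptide transporter family, and AT1G66760, of the MATE efflux family. Like AT3G21670, they were added after the word search and after seeing the data. Whether further transporter genes lie among the named genes was not checked, so the genes given here do not show how transporter genes on the array behaved as a group. AT2G26690 was lower under INA (-2.26), SA (-1.92) and BABA (-1.91) and higher under MeJA (0.75, adjusted p = 0.0015), and it had -0.24 under BTH and 0.22 under ET. AT1G66760 was lower under BABA (-2.84) and higher under SA (1.47) and MeJA (1.16), and it had 0.16 under BTH, -0.05 under INA and -0.11 under ET. The called means of both genes kept their sign in the deposited values and centred on TUA5.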

How the data were processed

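The values are log ratios deposited by the authors, 1 column per array, taken as log2 of treated (Cy5) over untreated (Cy3) RNA. Per the labels, slides were read on a ScanArray Lite scanner and a spot is the median of its pixels. The base of the logarithm, any background correction and any normalization were not given in the sources used here, and spot intensities were not used. Titles gave the agent, dose and time of each sample. MeJA is the name in the source names, where titles have JA. All columns were matched to samples. Gene names come from the platform annotation and, for 415 of 416 genes, from RefSeq (TAIR10.1), and 1676 of 2560 spots are unnamed here. No coordinates are given, since no genome build is stated.

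Arrays were centred on their median, the spots of a gene averaged, and repeat arrays of one RNA averaged. A gene was tested with values in at least 20 of 24 conditions and 3 times per agent. R 4.3.3 and limma 3.58.1 were used. Each gene was fitted by least squares with 1 mean for each agent plus time terms, its variance moderated by limma (prior 8.16 and residual 15 degrees of freedom), and two-sided p-values were adjusted after Benjamini and Hochberg across all 180 genes (threshold 0.05). Later against earlier times had a mean per agent and phase (prior 5.36). With 1 pooled RNA per condition, p-values rest on residual spread across conditions, which may be partly technical. The untreated RNA's own spread was not estimated. The scripts were tested on simulated data.

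Replicate numbers of the repeat arrays paired the arrays in the data (correlations of replicate 1 minus 2 over genes 0.58, 0.53 and 0.44 between the 3 conditions), so a fit with the number as a block was run. For INA at 10 h, replicate 1 has 10 h in its title and 2 h in its source name, and both were tried. Alternatives were other centrings and scalings, filters, spots, repeat arrays, times left out, no time terms, conditions compared alone, and a trended and robust prior. Leaving out the BABA 10 h array, and the conditions where AT2G39210 had 1 spot, were chosen after seeing the data. The genes, lists and tests were chosen with earlier results of these data known. Named genes are both members, TUA5, other transporters, and per member the 5 genes of highest and 2 of lowest Pearson r. Of the other transporters, GTR1 and OCT5 were found by words in symbols and synonyms. AT2G26690, AT3G21670 and AT1G66760 were added by hand after that search. PYK10 is the only listed tissue marker with a spot.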

Additional observations from a re-analysis of the deposited data

Results flagged for a closer look

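AT2G39210 minus AT5G14120 under SA at 24 h was 1.98, while the other 3 times lay between 0.48 and 0.59, so the 24 h value stands apart from the rest by Dixon's criterion. The 4 values are different times and not replicates of one condition, and this criterion marks about 1 in 20 sets of values by chance. It was applied to both genes and to their difference under each agent, so a mark among so many sets can arise by chance.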

How the results depend on the processing

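Every mean of either gene against untreated plants kept its direction under all alternatives run, and 1 changed side, AT2G39210 under MeJA at 1.36 centred on TUA5. The fall of AT5G14120 at 24 h also held. Signal over background is unknown, 1 pooled RNA stands for each condition, and the agents' doses differ, which limits what a difference between agents shows. The number of pairs of agents past the threshold was 9 for AT2G39210 and 5 under quantile normalization. For AT5G14120 it was 4, with 1 in the deposited values, 0 without terms for time, 8 with arrays scaled to a common spread, 3 centred on TUA5, which were other pairs than the 4, 2 with the replicate block, and 2 to 4 when a time or a repeat array was left out. Without terms for time, too, none of its 4 called pairs passed, the spread then holding the fall at 24 h. The within-array difference at 24 minus 2 h was 1.48 (exact p = 0.0625) with the first and 1.55 (exact p = 0.125) with the second spot, each with 5 agents, and 1.42 to 1.49 with a repeat array left out. The replicate block changed no other call of the report. Direction changed in differences that had not passed, apart from BTH minus ET of AT5G14120, and the cause was not tested.

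Centred on TUA5, AT2G39210 had 0.79 for SA minus ET, 0.53 for BTH minus ET and 0.77 for 24 minus 2 h. AT5G14120 had 0.11 for SA minus INA, 0.46 for SA minus BABA, -0.45 for INA minus BTH, 0.34 for INA minus BABA, 0.79 for BTH minus BABA, which passed (adjusted p = 0.0232), 0.033 for BTH minus ET, -0.15 for ET minus MeJA and 0.24 for 10 minus 2 h. In the deposited values these were 0.14 for SA minus ET of AT2G39210, and 0.018 for SA minus INA, 0.35 for SA minus BTH and 0.15 for 10 minus 2 h of AT5G14120. Centred on the tested genes' median, AT2G39210 had 0.07 for SA minus ET and -0.011 for 10 minus 2 h, and AT5G14120 had -0.0072 for 5 minus 2 h. Quantile normalization gave -0.12 and 0.12 for 10 and 24 minus 2 h of AT2G39210, and -0.21 for INA minus BTH, 0.22 for INA minus BABA and 0.43 for BTH minus BABA of AT5G14120. Scaling to a common spread gave -0.39 for 10 minus 2 h of AT2G39210, and -0.055 for INA minus BTH and 0.037 for BTH minus BABA of AT5G14120. The second spot gave 0.026 for SA minus ET of AT2G39210. With the first INA 10 h array taken as 2 h, 24 minus 2 h of AT2G39210 was 0.041, 5 minus 2 h of AT5G14120 was -0.012, and SA minus INA of the within-array difference was 0.091. With a time or a repeat array left out, AT2G39210 ranged from -0.59 to 0.030 for SA minus INA, -0.23 to 0.11 for SA minus ET, -0.0028 to 0.70 for INA minus ET and -0.14 to 0.0076 for 24 minus 2 h. AT5G14120 ranged from -0.48 to 0.14 for BABA minus MeJA, -0.095 to 0.16 for INA minus BTH, -0.52 to 0.065 for INA minus BABA, -0.34 to 0.080 for SA minus BTH and -0.045 to 0.12 for 5 minus 2 h.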
